A study of Mus musculus with 2 samples.

Results

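Long noncoding RNAs are transcripts that are not translated, and 8 of them with known names were followed here in cultured macrophages of mice with and without calpain-6. They were Malat1 and Neat1, which stay in the nucleus, Gas5, Snhg1 and Snhg12, whose introns carry small nucleolar RNAs (snoRNAs), the imprinted H19 and Meg3, and Dleu2, which hosts microRNAs. The RNAs were chosen by name, though with earlier results of these data known. A probe was assigned to one when its RefSeq accession belonged to that gene in a RefSeq gene table. By this rule 6 of the 8 RNAs had a probe, with 8 probes in all, among 20656 genes and 55678 probes on the array. Of these RNAs 5 were measured, which means that the probe was well above background on both arrays, among 12872 measured genes. None of the 5 differed by 1.2-fold between the genotypes.

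The cells were bone marrow-derived macrophages of male mice, grown from femoral marrow in medium with 10% serum and 50 ng/mL of M-CSF, the growth factor that turns marrow cells into macrophages. Both cultures also received 10 ng/mL of the inflammatory cytokine TNF-α. The group Capn6-Wt came from calpain-6 wild-type mice and the group Capn6-Ko from calpain-6-deficient mice, and the labels do not describe the allele or the age of the animals. The culture time is given as day 3 by one label and as day 4 by another. Samples of 4 mice were pooled, which may be the number per group or in all. Each group was 1 array, so there are no replicates, no test between the genotypes was possible, and every value describes these 2 RNA pools.

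The RNAs of this set are known for different roles. Malat1 is an abundant RNA of nuclear speckles, the stores of splicing factors, and Neat1 is the scaffold on which paraspeckles, another kind of nuclear body, are built. The snoRNA host genes are transcribed with the cell's growth, give snoRNAs that guide the modification of ribosomal RNA, and leave a spliced RNA that many of them lose to nonsense-mediated decay. H19 and Meg3 are expressed from the maternal chromosome, mostly in fetal and mesenchymal tissue, and Dleu2 lies in a region often deleted in chronic lymphocytic leukaemia.

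Many snoRNA host genes start transcription at a run of pyrimidines, as the mRNAs of ribosomal proteins do. The start sites of both measured hosts of the set are shown with those of Snhg10 and Snhg18, the 2 other host genes that lay past 1.2-fold. Each line gives 70 bases of the gene's strand from RefSeq (GRCm38.p6), 30 before the annotated start and 40 from it on. Capitals mark the longest unbroken run of C and T within 20 bases on either side of the start. The windows lie at chr19:8723457-8723526 on the forward strand for Snhg1, chr4:132308648-132308717 on the forward strand for Snhg12, chr12:105032240-105032309 on the reverse strand for Snhg10 and chr15:32244623-32244692 on the reverse strand for Snhg18.
Snhg1: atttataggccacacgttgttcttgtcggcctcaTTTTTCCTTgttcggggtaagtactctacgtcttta
Snhg12: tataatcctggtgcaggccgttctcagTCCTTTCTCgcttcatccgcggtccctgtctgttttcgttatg
Snhg10: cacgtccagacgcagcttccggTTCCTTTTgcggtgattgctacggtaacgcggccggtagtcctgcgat
Snhg18: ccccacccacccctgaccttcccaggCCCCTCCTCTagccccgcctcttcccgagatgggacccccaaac

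The run held 9 bases in Snhg1 and 9 in Snhg12, a length that 10.7% of 32851 promoter windows of the same size reached. It held 8 bases in Snhg10 (reached by 16.0% of windows) and 10 in Snhg18 (reached by 7.39%). The run spanned the annotated start in Snhg12 and Snhg18, ended just before it in Snhg10 and lay after it in Snhg1. Only the gene's strand was searched. Of 13 measured host genes with a window, 9 had a run of at least 6 bases, which 37.5% of all windows also had. Snhg17 and Rabggtb have 2 windows each, of which the longer run was counted, and the other Rabggtb window has a run of 4. A run of these letters is a description of the window and not evidence of a start site in use.

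The other sequences are the mature microRNAs cut from Dleu2 and H19, shown because the small RNA is the known product of each host and the array did not measure it. Capitals mark the seed, bases 2 to 8. In GRCm38.p6 all lie on the reverse strand, miR-15a-5p at chr14:61632075-61632096, miR-16-5p at chr14:61631936-61631957 and miR-675-5p at chr7:142577112-142577133.
mmu-miR-15a-5p: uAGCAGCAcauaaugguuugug
mmu-miR-16-5p: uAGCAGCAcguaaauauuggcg
mmu-miR-675-5p: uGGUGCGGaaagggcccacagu

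The microRNAs miR-15a-5p and miR-16-5p share the seed AGCAGCA and lie inside Dleu2, so they belong to 1 seed family. The seed of miR-675-5p, inside H19, is another one.

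Calpain-6 is a calpain that lacks the catalytic cysteine of the protease family. Its own probe gave 3.93 in Capn6-Wt and 8.65 in Capn6-Ko and was not well above background on either array, so it does not check the labels. The arrays were alike in brightness, with a 75th percentile of 377 and 372 and with 51.7% and 52.8% of spots well above background. Markers of macrophages were measured for 16 of 17 listed genes, with summed signals of 1753 and 1755 times the 75th percentile. These sums rest mostly on the brightest markers, Ctss, Lgals3 and Lyz2, and say little of the dimmer ones. Ctss gave 238119 in Capn6-Wt and 229876 in Capn6-Ko, beside 1186 and 1760.1 for Cx3cr1. Markers of stromal fibroblasts, a cell type that marrow cultures can hold, were measured for 23 of 24 (Lum was not measured), and their summed signal was 127 in Capn6-Wt and 89.1 in Capn6-Ko. Such bulk RNA cannot tell fewer cells of a type from less RNA per cell.

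Signals below are background-subtracted brightness on a linear scale. A difference is Capn6-Ko minus Capn6-Wt in log2 after each array is set to its 75th percentile, and ± gives the SD that spot-to-spot spread alone would cause. Mice, culture and labelling add to this error by an amount that 1 array per group cannot show. Over all 12872 measured genes the median difference was -0.0055 and the SD 0.18.

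Of the nuclear RNAs, Malat1 was lower by more than its spot SD and Neat1 was within it. Malat1 read 964 in Capn6-Wt against 836 in Capn6-Ko, with scanner errors of 96.4 and 83.7. Its level in Capn6-Ko was 0.878 times that in Capn6-Wt, a difference of -0.19 ± 0.09, just beyond 2 spot SDs and about 1 SD (0.20) of the error that the scanner software gives. Among all measured genes 10.7% lay at least as far below 0. That share is not matched for level. Malat1 lies above the median level of measured genes, where the SD of the differences was 0.10, beside 0.18 over all of them. The difference of Malat1 was -0.122 with the arrays set to their medians and -0.115 after another background correction (normexp). Both values are within 2 of its spot SDs. Neat1 read 30031 in Capn6-Wt and 30174 in Capn6-Ko, with scanner errors of 3003 and 3017, and a difference of 0.03 ± 0.08. The Neat1 gene gives a short and a long transcript, and the files do not say which of them the probe detects. Malat1 and Neat1 lie next to each other in the gene table, and the difference between their values was not tested.

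**Figure D1:**
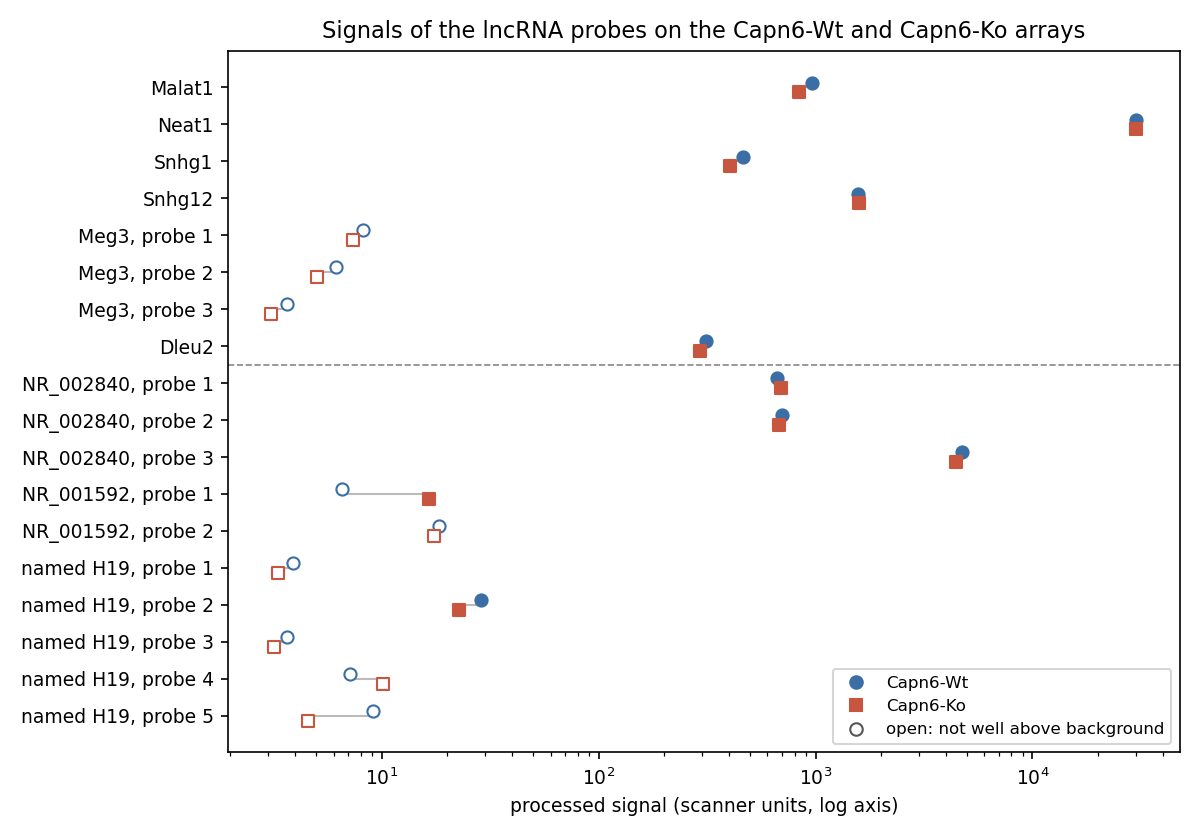
Signal of the long noncoding RNA probes on the Capn6-Wt and Capn6-Ko arrays, 1 point per array, on a log axis of processed signal. Open points were not well above background. Below the dashed line are the probes that the gene table did not assign to a gene. The 5 measured RNAs run from Dleu2 (313 and 293) to Neat1 (30031 and 30174).

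Of the snoRNA hosts, Snhg1 was lower by more than its spot SD and Snhg12 was within it, and the difference between them was not tested. Snhg1 gave 461 in Capn6-Wt and 405 in Capn6-Ko, with scanner errors of 46.3 and 40.7, a difference of -0.17 ± 0.10 that 12.1% of measured genes reached on that side. It was -0.104 with the arrays set to their medians. The table places 8 snoRNAs inside Snhg1, among them Snord22. Snhg12 gave 1571 and 1578, with scanner errors of 157 and 158 and a difference of 0.02 ± 0.08. It holds 4 snoRNAs, Snora16a, Snora44, Snora61 and Snord99. The snoRNAs themselves are cut from introns, and the probes of spliced host RNA do not read them.

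Gas5, named for its rise in growth-arrested cells and known to bind the glucocorticoid receptor, holds 8 snoRNAs in the table, but no probe carried one of its accessions there. The array has 3 probes with the accession NR_002840, which the table does not hold, so they are given without a gene name. They may read Gas5 under an older accession, which the table cannot settle, and the count of 6 of 8 RNAs with a probe holds for this table only. Their signals in Capn6-Wt and Capn6-Ko were 666 and 689.8 for the first, 702 and 677 for the next, and 4718 and 4463 for the last. The differences were 0.07 ± 0.09, -0.04 ± 0.09 and -0.06 ± 0.08, each within 1 spot SD.

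The imprinted RNAs were at or near background. Meg3 has 3 probes, which read 8.21, 6.13 and 3.66 in Capn6-Wt and 7.41, 5.05 and 3.10 in Capn6-Ko. None was well above background on either array, so no fold is given. The lowest signals that the scanner software called well above background were 16.6 on the wild-type array and 14.0 on the knockout array, although some spots above these were not called. The protein-coding partner Dlk1 and the retrotransposon-derived Rtl1 of the Meg3 region were not well above background either, nor was the long noncoding RNA Mirg. Dlk1 gave 6.86 and 4.33 in Capn6-Wt and 3.75 and 3.78 in Capn6-Ko over its 2 probes.

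H19 had no probe with an accession that the table gives to it. The files name 5 further probes H19, and 4 of them were not well above background on either array. The remaining one gave 28.6 in Capn6-Wt against 22.8 in Capn6-Ko, a difference of -0.31 ± 0.33, within its spot SD. Since its scanner errors were 4.86 and 4.09, this probe is close to the floor. A further 2 probes carry the accession NR_001592, which is not in the table and is given without a gene name, although it may be an older accession of H19. One gave 18.3 and 17.5 and was not well above background on either array, while the other gave 6.56 in Capn6-Wt and 16.6 in Capn6-Ko, well above background in the latter. No fold is given for it, since the sister probe was not called on the Capn6-Wt array at 18.3. Igf2, the paternally expressed neighbour of H19, gave 4.37 and 3.75 and was not well above background on either array.

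Dleu2, the microRNA host, gave 313 in Capn6-Wt and 293 in Capn6-Ko, with scanner errors of 31.6 and 29.6. The difference of -0.08 ± 0.11 was within 1 spot SD, and 26.0% of measured genes lay at least as far below 0. The RNA of the host and the mature microRNAs can differ, and the array has no value for the latter.

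Across the 5 measured RNAs, 2 were higher and 3 lower in Capn6-Ko. Of the 5, 3 lay within 1 spot SD, beside 61.6% of all measured genes. The median of the 5 RNAs was -0.076. None reached 1.2-fold in either direction, where 4.12% of all measured genes were at least that much higher and 7.16% at least that much lower. At 1.5-fold the shares were 0.334% and 1.26%. Above the median level, where 3 of the 5 lie (Malat1, Neat1 and Snhg12), the share past 1.2-fold was 1.29% of 6436 genes on the higher side and 1.10% on the lower side. With so few genes past that size, a count of 0 among 5 is near the background. Each of the 5 values came from 1 spot per array.

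**Figure D2:**
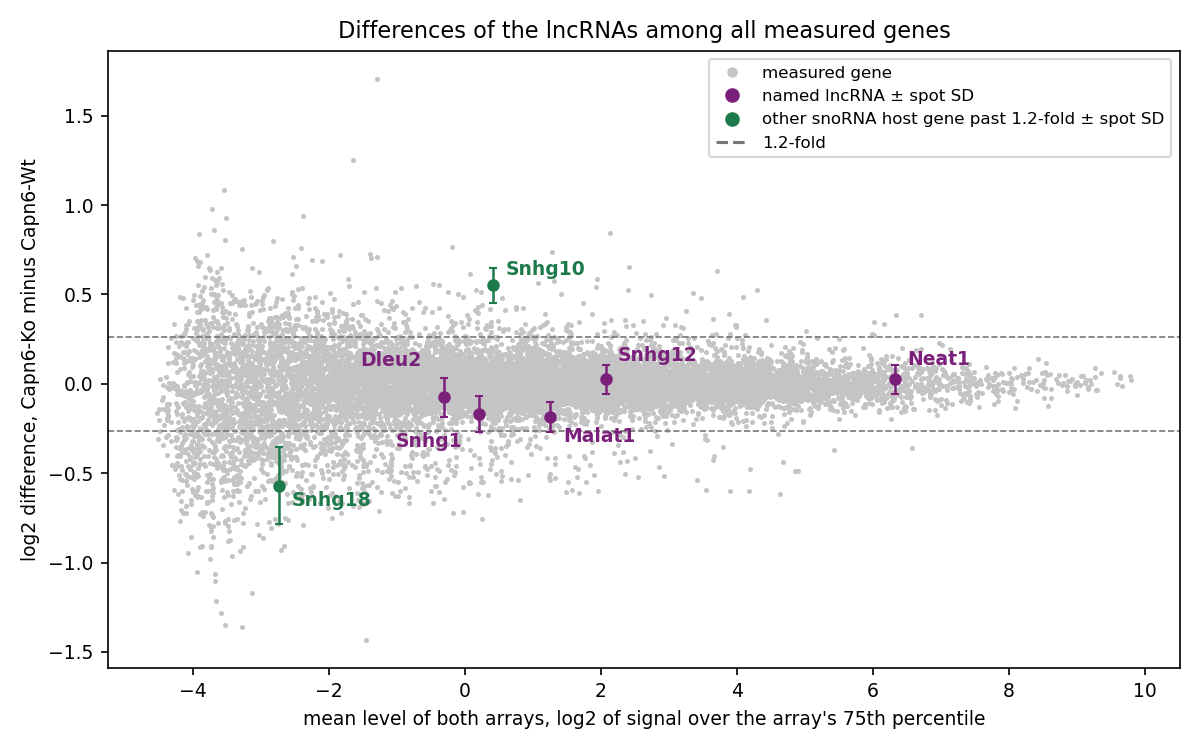
Log2 difference, Capn6-Ko minus Capn6-Wt, against mean level relative to the array's 75th percentile, for the measured genes (grey) and the named long noncoding RNAs (coloured), with dashed lines at 1.2-fold. The 5 RNAs lie between the lines, from -0.19 for Malat1 to 0.03 for Neat1, and dim genes spread more widely than bright ones.

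The genes next to the RNAs on the chromosome were compared in the same way. Of 28 measured neighbours, 18 lay within 1 spot SD, 3 lay past 1.2-fold (1 on the higher side and 2 on the lower), and the median was -0.015. These shares, 64.3% within 1 spot SD and 10.7% past 1.2-fold, are near those of all measured genes, 61.6% and 11.3%. Beside Malat1 and Neat1, the TGF-β binding protein Ltbp3 was at 0.09 ± 0.07, Frmd8 was at -0.03 ± 0.08 and the mitochondrial carrier Slc25a45 at 0.05 ± 0.08. Next to Snhg1, the amino acid transporter subunit Slc3a2 gave 35399 and 31466, a difference of -0.15 ± 0.08, while Wdr74, a factor of ribosome assembly, was at -0.03 ± 0.03. Slc22a28 and 1700092M07Rik on the same stretch were at -0.03 ± 0.13 and -0.11 ± 0.25.

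Next to Snhg12, the transcription factor subunit Taf12 was at -0.06 ± 0.08, Rab42 at 0.19 ± 0.22, the selenocysteine tRNA factor Trnau1ap at -0.01 ± 0.05 and the chromatin-bound exchange factor Rcc1 at -0.10 ± 0.08. The ubiquitin ligase Trim13, beside Dleu2, was at 0.04 ± 0.07, Spryd7 at 0.07 ± 0.06 and the potassium channel regulator Kcnrg, inside Dleu2, at 0.04 ± 0.20. Rnaseh2b on the other side, a subunit of the enzyme that removes RNA from DNA, gave 2812 in Capn6-Wt against 2393 in Capn6-Ko, a difference of -0.21 ± 0.08. That is the only neighbour of Dleu2 beyond 2 spot SDs.

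The region of Gas5 held Zbtb37 at 0.03 ± 0.14, the centromere protein Cenpl at 0.01 ± 0.10 and Serpinc1, which encodes antithrombin, at -0.30 ± 0.30 with signals of 36.3 and 29.2. Around H19 the leukocyte protein Lsp1 was at 0.11 ± 0.08, the mitochondrial ribosomal protein Mrpl23 at -0.07 ± 0.08 and the tyrosine hydroxylase Th at -0.04 ± 0.11. The insulin gene Ins2 there was dim, with 59.3 in Capn6-Wt and 71.4 in Capn6-Ko, and stood at 0.29 ± 0.19. Around Meg3 the tryptophanyl-tRNA synthetase Wars was at -0.05 ± 0.07, the phosphatase subunit Ppp2r5c at -0.02 ± 0.06, the dynein heavy chain Dync1h1 at 0.02 ± 0.08 and Wdr25 at -0.27 ± 0.15, with signals of 137 and 113.

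Other snoRNA host genes were set beside Snhg1 and Snhg12. Of 20 listed, 12 were measured, 4 higher and 8 lower in Capn6-Ko, with a median of -0.020. Snhg10 was the 1 gene at least 1.2-fold higher, with 417 in Capn6-Wt against 603 in Capn6-Ko, a difference of 0.55 ± 0.10 or 1.47-fold. Snhg18 was the 1 gene at least 1.2-fold lower, with 68.9 and 45.9, a difference of -0.57 ± 0.21 or 1.48-fold. Both rest on 1 spot per array, and both exceed Snhg1's difference in size. These 2 are 16.7% of the 12, of which 5 lie above the median level, beside 11.3% of all measured genes past 1.2-fold. Among the others Snhg17 was at -0.12 ± 0.13, the box C/D snoRNP protein gene Nop56 at -0.09 ± 0.06 and Snhg3 at 0.03 ± 0.08. Snhg16 averaged 0.09 ± 0.08 over probes at -0.04 and 0.21, which differ by more than that error.

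**Figure D3:**
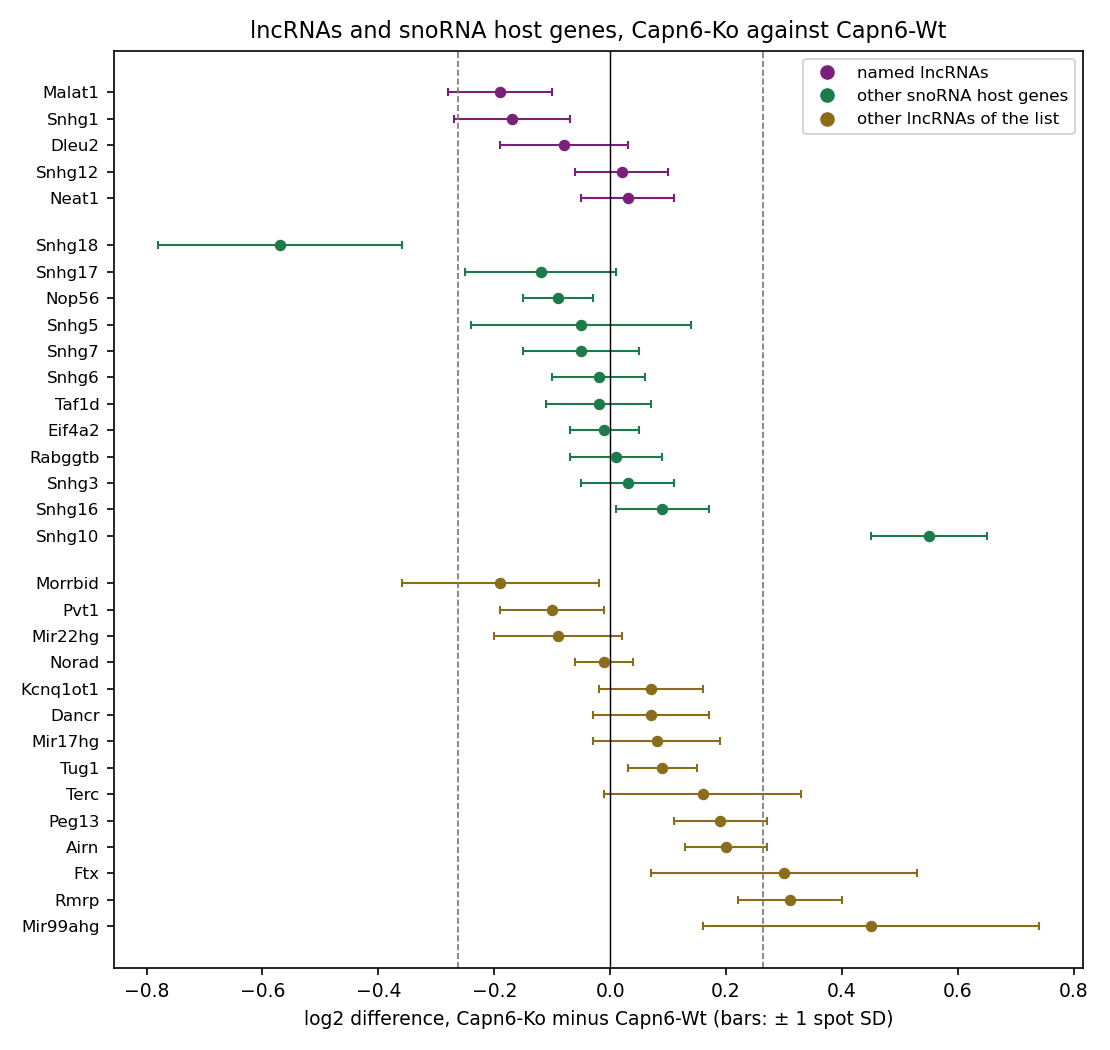
Log2 difference, Capn6-Ko minus Capn6-Wt, with bars of 1 spot SD, for the 5 measured long noncoding RNAs of the set, 12 other snoRNA host genes and 14 other named long noncoding RNAs, with dashed lines at 1.2-fold. Snhg10 at 0.55 and Snhg18 at -0.57 lie furthest from 0, and the 5 RNAs of the set lie between the lines.

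Other named long noncoding RNAs had a median of 0.086, with 14 measured of 37 listed, and of -0.009 with no filter on background. In Capn6-Ko 10 were higher and 4 lower, and 3 lay past 1.2-fold, all on the higher side. Those 3 are 21.4% of the list, beside 11.3% of all measured genes past 1.2-fold in either direction and 4.12% on the higher side. Of the 14, 3 lie above the median level, Rmrp among them, while Mir99ahg and Ftx lie below it. Rmrp, the RNA of the mitochondrial RNA processing enzyme, gave 684 in Capn6-Wt against 838 in Capn6-Ko, a difference of 0.31 ± 0.09. Mir99ahg (29.5 and 39.9) was at 0.45 ± 0.29 and Ftx, a regulator of X inactivation (45.4 and 55.1), at 0.30 ± 0.23. The imprinted Airn stood at 0.20 ± 0.07, with both probes above 0, and Peg13 at 0.19 ± 0.08, with signals of 2584 and 2913. On the lower side were Morrbid, known for the survival of short-lived myeloid cells, at -0.19 ± 0.17 and Mir22hg at -0.09 ± 0.11. Pvt1, beside Myc, was at -0.10 ± 0.09 from probes at -0.40 and 0.21, which disagree in sign.

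The gene table labels 255 other measured genes as long noncoding RNA, and Rmrp, at 0.31, is not among them. Over these 255 genes the median was 0.0010, with 128 higher and 127 lower. Of these 51 (20.0%) lay past 1.2-fold in either direction, 19 higher and 32 lower, beside 11.3% of all measured genes. The 2 shares are not matched for level, since 32 of the 255 lie above the median level, beside 6436 of all 12872 genes. Dim genes spread more widely than bright ones. Of the 32 such genes above the median level, none lay past 1.2-fold, with a range from -0.13 to 0.20, beside 2.39% of all genes at that level. Malat1, at -0.19, lies outside that range on its lower side.

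Genes tied to the roles of the RNAs had medians close to 0. Of 34 listed proteins of paraspeckles, the bodies built on Neat1, 33 were measured, 16 higher and 17 lower, with a median of -0.0030 and none past 1.2-fold. The paraspeckle core gene Nono was at 0.05 ± 0.06, Sfpq at 0.06 ± 0.06 and Pspc1, with 598 and 556, at -0.09 ± 0.10. Furthest from 0 were Dlx3 at -0.14 ± 0.08 and, on the other side, the splicing proteins Hnrnpm and Hnrnph1, each at 0.14 ± 0.08, and Rbmx at 0.13 ± 0.09. Of 24 listed genes of nuclear speckles, where Malat1 resides, 23 were measured, 13 higher and 10 lower, with a median of 0.019 and none past 1.2-fold. The splicing regulator Tra2b was at -0.22 ± 0.17, the speckle scaffold Srrm2 at -0.21 ± 0.10 and the splicing subunit Sf3b1 at 0.21 ± 0.15.

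The mRNAs that share the pyrimidine start with snoRNA hosts, those of ribosomal proteins and translation factors, were all measured, 41 of 41, with 30 higher and 11 lower, a median of 0.019 and a range from -0.13 to 0.12. Of the 41, which all lie above the median level, 9 lay beyond 1 spot SD, beside 2300 of the 6436 measured genes at that level. Over all measured genes 6157 were higher and 6715 lower. The median of the 41 was 0.006 with the 75th percentile taken over spots well above background on both arrays. Rps2 was at -0.13 ± 0.06, Rpl15 at 0.12 ± 0.06 and the poly(A) binding protein Pabpc1 at 0.10 ± 0.08. Of 16 genes of snoRNP proteins, which bind snoRNAs, 7 were higher and 9 lower, with a median of -0.020. Znhit3, a factor of snoRNP assembly, gave 222 in Capn6-Wt against 180.0 in Capn6-Ko, a difference of -0.29 ± 0.13, and Dkc1, the pseudouridine synthase, was at 0.18 ± 0.13. Nonsense-mediated decay factors, 14 measured of 15, had a median of -0.0082, with the central helicase Upf1 at 0.07 ± 0.09 and the dim Smg8 (22.3 and 30.4) at 0.47 ± 0.33. Glucocorticoid response genes, set beside Gas5, had a median of 0.016 over 12 genes, with the receptor Nr3c1 at 0.05 ± 0.08. The dim Zbtb16 (53.5 and 65.0) was the 1 gene past 1.2-fold, at 0.30 ± 0.21. It is 8.33% of the 12, beside 11.3% of all measured genes.

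**Figure D4:**
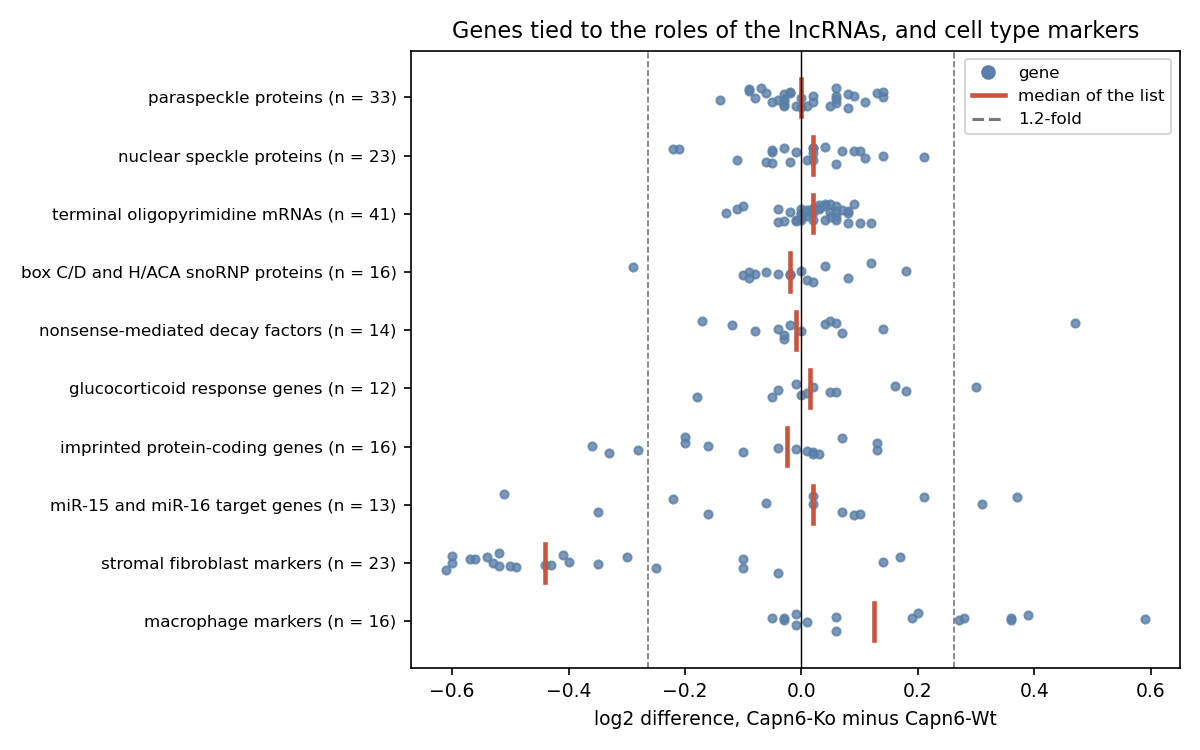
Log2 difference, Capn6-Ko minus Capn6-Wt, of each measured gene (points) of 8 lists tied to the roles of the long noncoding RNAs and of 2 lists of cell type markers, with the median of each list (red bar) and dashed lines at 1.2-fold. The lists tied to roles centre near 0, the stromal markers centre at -0.44 and the macrophage markers at 0.12.

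The genes listed as targets of miR-15 and miR-16, the microRNAs of Dleu2, spread widely around a median of 0.025, with 8 of 13 higher and 5 lower. Of the 13, 4 (30.8%) lay past 1.2-fold, beside 11.3% of all measured genes, and 4 lie above the median level. Past 1.2-fold on the lower side were the cyclin Ccnd2, with 615 in Capn6-Wt against 428 in Capn6-Ko and a difference of -0.51 ± 0.10, and the growth factor Vegfa, at -0.35 ± 0.07 from probes at -0.23 and -0.46. On the higher side were the kinase Cdk6 at 0.37 ± 0.23 and the cell cycle repressor E2f7 at 0.31 ± 0.14. The other cyclin Ccnd1 stood at 0.21 ± 0.08 and the apoptosis inhibitor Bcl2 at 0.10 ± 0.11. The listed targets therefore lay on both sides of 0, and the microRNAs have no value of their own here.

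Imprinted protein-coding genes, 16 measured of 34, were higher for 7 and lower for 9, with a median of -0.028. The cell cycle inhibitor Cdkn1c gave 41041 in Capn6-Wt against 31542 in Capn6-Ko, a difference of -0.36 ± 0.08. Sgce (96.6 and 75.9) was at -0.33 ± 0.16 and Ndn (74.2 and 60.2) at -0.28 ± 0.19, and these 3 were the only members past 1.2-fold. They are 18.8% of the 16, of which 6 lie above the median level, beside 11.3% of all measured genes. Igf2r, the receptor for Igf2, was at -0.01 ± 0.03.

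Stromal fibroblast markers lay further from 0 than the lists tied to the RNAs, with a median of -0.44, 21 of 23 lower and 17 of them by at least 1.2-fold. Past 1.2-fold were 73.9% of the 23, beside 11.3% of all measured genes. The smooth muscle genes Tagln and Acta2 were at -0.61 and -0.60 and the collagen gene Col1a2 at -0.60, while Thy1 and Fap were at 0.17 and 0.14. Macrophage markers had a median of 0.12, with 11 of 16 higher, 6 of them by at least 1.2-fold, led by the chemokine receptor Cx3cr1 at 0.59 ± 0.06, and Cd68 was not measured. Those 6 are 37.5% of the 16, which all lie above the median level, where 2.39% of all genes lay past 1.2-fold. The summed signal of neutrophil markers was 25.2 and 25.3, that of lymphocyte markers 8.24 and 8.55, and that of megakaryocyte and erythroid markers 37.3 and 40.4. Among markers not measured were Ly6g of neutrophils, Cd3d of lymphocytes and Klf1 of erythroid cells. Whether the stromal share has a part in the values of Malat1, Snhg1, Snhg18 or Cdkn1c was not tested.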

How the data were processed

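Total RNA of 2 pooled cultures was labelled with Cy3 and hybridised to 1 Agilent array per group, on the same slide and scanned together, per the file headers. The deposited intensities are linear and per spot. Per the file headers, Feature Extraction 10.10.1.1 produced them and subtracted the background within each array. The array design is annotated on mm9. The authors' value table, an intensity table of 59305 rows, equals the processed signal multiplied by 2.39 for Capn6-Wt and by 2.42 for Capn6-Ko, with medians of 53.0 and 50.7 and no centring. The origin of these factors is not given in the sources.

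Control spots and outlier-flagged spots (161 and 136) were left out, and no spot was saturated. Log2 signals were set against the array's 75th percentile over 59305 non-control spots, spots were averaged by probe, and probes were named by RefSeq accession through a gene table of GRCm38.p6 (27226 of 55678 probes). A gene is the mean over its measured probes. The spot SD came from 263 probes with at least 5 spots per array, in 8 bins of level. Since a single array stands for each genotype, no p-value is given. A gene was counted when it was past 1.2-fold (0.26 in log2) or 1.5-fold. Precision is limited by the number of arrays.

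The named long noncoding RNAs, 19 gene lists and the sizes were chosen with earlier results of these data known. Named are every probe of the RNAs, in each list genes among the 3 furthest from 0 on either side and those past 1.2-fold, and the nearest 2 named measured genes on each side. Cell type markers are given as sums and medians, with a few names. A few neighbouring genes and markers are not reported here. The other genes named, such as Nono, Sfpq, Upf1, Nr3c1, Bcl2, Igf2, Igf2r, Rtl1, Mirg and Dlk1, were picked for their known roles after their values were seen. The files hold no mean signal column, so normexp (offset 50, limma 3.58.1 in R 4.3.3) used the median signals. The other computations, tested on simulated data, used numpy 2.4.6, pandas 2.3.3 and Python 3.11.15.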

Additional observations from a re-analysis of the deposited data

Results flagged for a closer look

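A probe with the accession NR_001592, which the gene table does not hold and which enters no comparison, had a signal of 16.6 in Capn6-Ko, well above background there, and of 6.56 in Capn6-Wt, where it was not. The value was singled out because the signal lies outside the named genes and above that of the control array. It is close to the floor, since the lowest signals called well above background were 14.0 in Capn6-Ko and 16.6 in Capn6-Wt. The other probe of this accession gave 17.5 in Capn6-Ko and 18.3 in Capn6-Wt and was not well above background on either array, so no fold is given.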

How the results depend on the processing

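The measured RNAs were recomputed under 11 other settings (10 for Dleu2, whose probe is not above the median level of measured probes), 2 of them chosen after seeing the data (normexp on the median signals, and counting the probes that the files name H19). The probe of Snhg1 lies above that median of probes, although Snhg1 lies below the median level of genes. Each RNA rests on 1 probe, so the settings of scale, quantile normalization and normexp could move its value, and those that choose among probes could not. Malat1 lay between -0.201 and -0.115, Snhg1 between -0.182 and -0.104, Neat1 between 0.0110 and 0.0900 and Snhg12 between 0.0110 and 0.0890. Dleu2 had the widest range in sign, -0.0900 to 0.0150, and turned to 0.015 with normexp, which also moved the median of the measured RNAs to 0.015. Counting the probes named H19 put 1 RNA at least 1.2-fold lower. The median of imprinted protein-coding genes was -0.195 with no filter on background, and that of the pyrimidine-start mRNAs 0.084 with the median centre. Of all measured genes, 912 were at least 1.2-fold higher with the median centre, 843 with probes well above background on at least 1 array, 1988 with no filter, 135 with only probes above the median level and 169 with normexp, beside 530 in the main setting. At least 1.2-fold lower were 2962 with no filter, 147 with only probes above the median level and 300 with normexp, beside 921. The cause of these changes was not tested, except that the filters change which probes are counted. The median of all genes ran from -0.0440 to 0.0590 over the settings. Among list medians near 0, those of the pyrimidine-start mRNAs, glucocorticoid response genes and miR-15 and miR-16 targets stayed above 0 in all settings. Their lowest values were 0.006, 0.002 and 0.011. All settings use the same 2 arrays, so a kept sign does not replicate a direction. Other list medians near 0 had no stable sign. With the median centre those of other snoRNA hosts (0.045), imprinted genes (0.037), paraspeckle proteins (0.062), decay factors (0.057), snoRNP proteins (0.044) and neutrophil markers (0.048) lay above 0, and with the brightest probe that of nuclear speckle proteins was -0.027. The stromal median ran from -0.491 to -0.378. Naming probes by a gene name column was not run, since the files hold none. No paired analysis was possible because each group is 1 array. Signals not well above background limit what can be said of Meg3 and of most probes named H19.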
